A study of Mus musculus with 6 samples.

Results

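The genes described here are 10 genes of MHC class I antigen presentation, out of 55394 genes listed for group 2 innate lymphoid cells (ILC2s) of the neonatal mouse lung. They are the heavy chain genes H2-K1, H2-D1, H2-Q7, H2-Q4 and H2-T23, the light chain gene B2m, the peptide loading genes Tap1, Tap2 and Tapbp, and Nlrc5. They were chosen by gene symbol, and each of the 10 symbols occurred once. SMART-seq, a method that amplifies full-length cDNA from few cells, was run on 6 libraries of 1000 sorted lung ILC2s each. All pups were wild-type C57BL/6 mice. The 3 Abx libraries came from pups of dams that drank a cocktail of ampicillin, metronidazole, neomycin and vancomycin from gestation day 10 to day 14, and the 3 Con libraries from pups of control dams. The age of the pups, their sex and the number of animals behind a library are not given for these libraries in the sources used here, so the p-values below measure the spread between these libraries.

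Nearly all nucleated cells show peptides from their own proteins on class I molecules. A class I molecule is a heavy chain held together with the light chain beta-2 microglobulin. The proteasome cuts proteins into peptides, the TAP transporter carries the peptides into the endoplasmic reticulum, and tapasin bridges the transporter and the empty class I molecule until a peptide is bound. Interferons raise transcription of most of these genes through an interferon-stimulated response element and a conserved upstream module that the transactivator NLRC5 uses. Class I promoters also hold NF-kB sites. Class I levels are high in lymphocytes.

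A promoter window, 250 bases before to 50 bases after the start, was matched for 8 of the 10 genes in RefSeq (GRCm38.p6), all but Tap2 and Nlrc5. The stretches below are read 5′ to 3′ on the strand of the gene, end before its RefSeq start, and were chosen because they hold the response element. Capitals mark matches on either strand to AANNGAAA (the core of the response element), GGGATTCC or GGGATTTCC (NF-kB sites), CCAAT and TGACG.
H2-K1, chr17:34000348-34000467, minus strand: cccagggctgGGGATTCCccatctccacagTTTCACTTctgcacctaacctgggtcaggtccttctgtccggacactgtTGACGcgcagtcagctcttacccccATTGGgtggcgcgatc
H2-Q7, chr17:35439012-35439145, plus strand: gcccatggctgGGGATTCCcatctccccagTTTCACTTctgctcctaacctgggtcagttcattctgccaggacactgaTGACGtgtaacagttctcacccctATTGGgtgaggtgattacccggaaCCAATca
B2m, chr2:122147520-122147653, plus strand: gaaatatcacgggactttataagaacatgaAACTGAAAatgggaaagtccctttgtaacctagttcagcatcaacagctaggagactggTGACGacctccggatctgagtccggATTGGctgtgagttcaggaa

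In H2-K1 and H2-Q7 an NF-kB match, the response element, TGACG and the reverse of CCAAT followed each other in this order. The window of H2-D1 had its matches in this order too. In that of H2-Q4 a match to CCAAT came before TGACG, and that of H2-T23 held no TGACG. B2m had the order of H2-K1 from the response element on, with no match to either NF-kB spelling. Other spellings of NF-kB sites were not searched for, and these do not cover gggaaagtccc, which follows the response element of B2m. The lack of a match is therefore no lack of an NF-kB site. For the other heavy chain genes the 28 bases that end with the first match to the response element are shown, to compare them with H2-K1.
H2-D1, chr17:35262924-35262951, plus strand: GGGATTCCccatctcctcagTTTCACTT
H2-Q4, chr17:35379444-35379471, plus strand: GGGATTTCCcatctccccagTTTCACTT
H2-T23, chr17:36032818-36032845, minus strand: atgaaaagggatcctactgcTTTCTCTT

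In GENCODE M21 the stretches of H2-D1 and H2-T23 lie in an exon of another transcript of the same gene, and those of H2-K1, H2-Q7, H2-Q4 and B2m in no exon of theirs. Of these 28 bases, H2-D1 and H2-K1 had 27 in common, H2-Q4 and H2-K1 26, and H2-T23 and H2-K1 12. AANNGAAA was found in 6 of the 8 windows, those of the 5 heavy chain genes and B2m, and in 26.7% of the 27025 genes with a window. GGGATTCC was in 3 of the 8, H2-K1, H2-D1 and H2-Q7, against 1.23% of all genes, and GGGATTTCC in H2-Q4 alone among them, against 0.389%. CCAAT was in all 8, against 41.1%, and TGACG in 6, against 6228 of the 27025 genes. The windows of Tap1 and Tapbp held CCAAT, and that of Tap1 also TGACG. The spellings were set after these windows were read, so the shares over all genes are no test. H2-K1, H2-D1, H2-Q7 and H2-Q4 also resemble each other in sequence, so their matches are not separate observations. A match to these letters is a description of the window and no site of binding.

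The level of each gene is expressed in FPKM, the fragments of a gene scaled by its exon length and by the reads mapped, so that levels of different genes can be set beside each other. The total FPKM of a library lay between 420941 and 489262, and between 7074 and 9203 genes reached 1 FPKM. The number of reads is unknown and no counting error is given. Of the 12 markers of ILC2s, 11 were at 1 FPKM or more in all 6 libraries, among them Gata3 at 33.90 to 97.48 FPKM. Il1rl1, which encodes the IL-33 receptor, was at 0.01 to 2.94 FPKM. The summed level of the 12 was 2835 to 3239 FPKM in Con and 2139 to 2705 FPKM in Abx. Areg, Arg1 and Icos were lower in every Abx library than in every Con library. Their means were 740 and 289 FPKM, 630 and 438 FPKM, and 272 and 106 FPKM. Id2 averaged 880 FPKM in Con and 1137 FPKM in Abx, with overlap. Of the 11 markers in the limma comparison below, 5 were higher and 6 lower in Abx by fitted value. The sort left out cells stained for lineage markers such as CD3e, CD4, CD8a, B220 and NK1.1. The summed level of 10 T cell markers was 264 to 295 FPKM in Con and 509 to 739 FPKM in Abx, and that of 10 B cell markers 386 to 513 FPKM and 857 to 904 FPKM. Ighm, at 109.49 to 159.26 FPKM in Con and 357.66 to 428.74 FPKM in Abx, and Igkc, at 126.91 to 218.47 FPKM and 260.97 to 364.82 FPKM, made up most of the B cell sum. Cd3d, Cd3g, Cd8b1 and Lck of the T cell list and Ms4a1 of the B cell list were also higher in every Abx library. Cd3d averaged 6.29 FPKM in Con and 69.7 FPKM in Abx, and Lck 58.8 FPKM and 225 FPKM. Cd79b and Cd22 of the B cell list and Zap70 of the T cell list were lower in every Abx library than in every Con library. Ebf1 of the B cell list was at or under 0.09 FPKM in all 6 libraries. The summed level of 7 NK cell markers was 0 to 21.7 FPKM in Con and 215 to 224 FPKM in Abx, all of it Gzma in Abx, while Klrb1c, Prf1, Klra8 and Tbx21 were listed at 0 in every library. T, B and NK cells carry class I molecules too, and the part of such cells in the levels below was not tested. Fewer cells of a type and less RNA per cell cannot be told apart in these libraries. Xist, the transcript of the inactive X chromosome, was at 3.78 to 5.09 FPKM in Con and listed at 0 in Abx, so exposure and the sex of the pups cannot be told apart.

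Together the 10 genes took 2.27%, 2.50% and 2.44% of the total FPKM in Con libraries 1, 2 and 3, and 2.01%, 2.62% and 2.33% in the Abx libraries. Nearly all of this came from B2m, H2-D1 and H2-K1. B2m ranked between 3 and 6 among all genes in each library, H2-D1 between 16 and 28, and H2-K1 between 64 and 88. At the other end Nlrc5 lay at or under 0.04 FPKM in 5 of the 6 libraries. The order of mean levels was B2m, H2-D1, H2-K1, H2-T23, H2-Q7, Tapbp, Tap2, Tap1, H2-Q4 and Nlrc5. The ranges of neighbours over the 6 libraries did not overlap from B2m down to H2-Q7, nor between Tap2 and Tap1. Those of H2-Q7 and Tapbp, of Tapbp and Tap2, of Tap1 and H2-Q4 and of H2-Q4 and Nlrc5 overlapped.

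**Figure D1:**
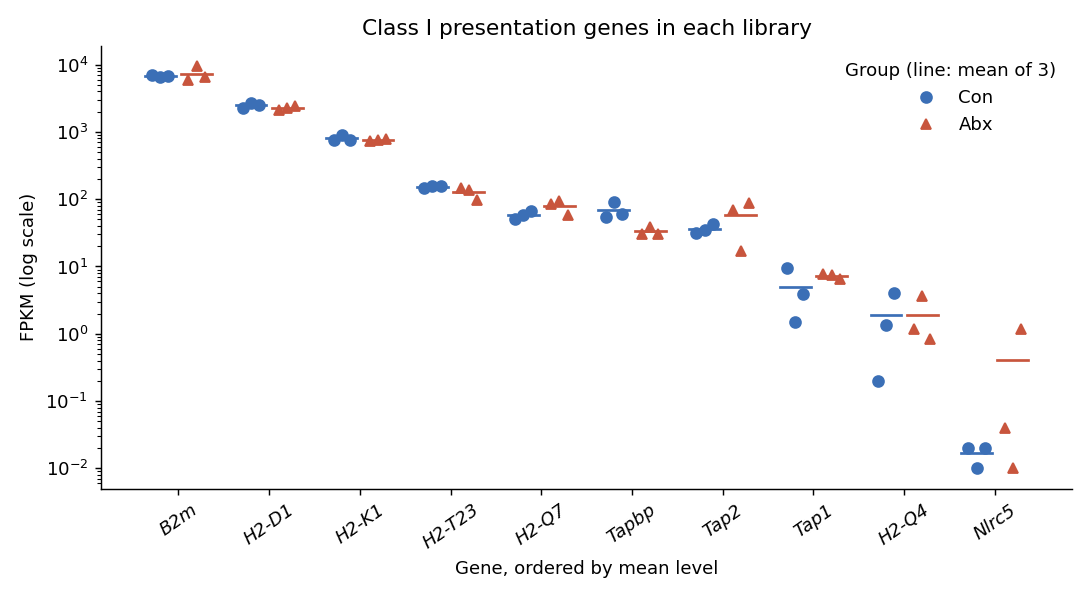
FPKM of the 10 class I presentation genes (log axis) in the 3 Con (circles) and 3 Abx (triangles) libraries, ordered by mean level, with a line at the mean of each group. B2m, H2-D1 and H2-K1 lie highest in every library, and Tapbp is the gene whose 3 Abx points lie under all 3 Con points.

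Antibiotic exposure of the dam was compared with no exposure for each gene with limma on log2(FPKM + 1), over the 8718 genes that reached 1 FPKM in at least 3 of the 6 libraries. Of the 10 genes 9 were tested, all but Nlrc5. None of the 9 passed both thresholds, a difference of more than 2-fold and 0.05 for the adjusted p, where 0.0574% of all genes tested did (5 genes). Adjusted p-values of the 9 ranged from 0.266 to 0.974. At an unadjusted limma p under 0.05 there was 1 of the 9, Tapbp, where 11.0% of all genes tested passed. Tapbp was also the 1 gene of the 9 whose groups did not overlap, where 17.2% of all genes tested did not overlap and 8.73% did so with Abx lower. By fitted value 5 genes were higher in Abx and 4 were lower. The median log2 fold change of the 9 was 0.09, against -0.06 over all genes tested, and the median size of the difference without its sign was 0.27 against 0.61.

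**Figure D2:**
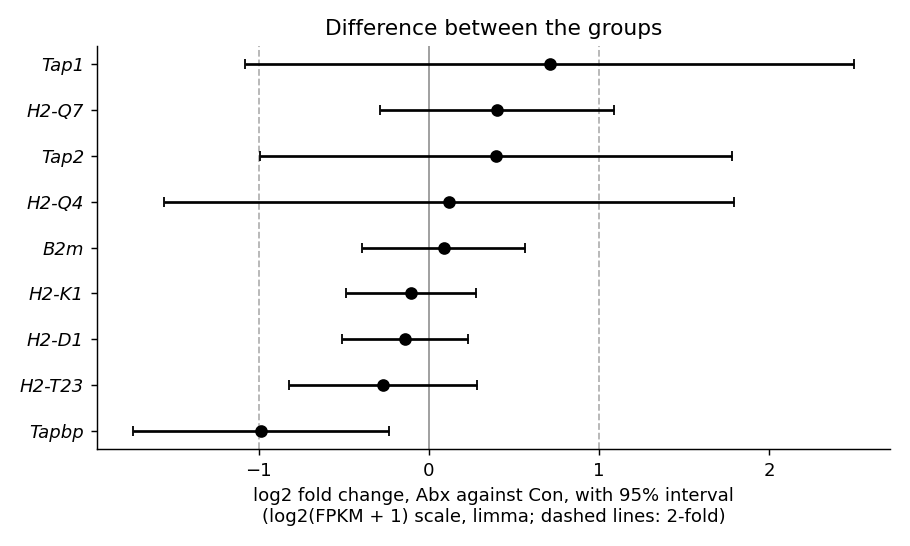
log2 fold change of Abx against Con on the log2(FPKM + 1) scale for the 9 genes tested (points) with its 95% interval from limma (bars), and dashed lines at a 2-fold difference. The interval of Tapbp, from -1.74 to -0.23, is the one that leaves out 0, and the intervals of H2-K1, H2-D1, B2m and H2-T23 lie within the dashed lines.

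H2-K1 (ENSMUSG00000061232, chromosome 17 of GRCm38 from 33996017 to 34000347) encodes a classical heavy chain that presents peptides to CD8 T cells. Its level was 766.56, 897.39 and 769.70 FPKM in Con libraries 1, 2 and 3, against 720.17, 746.39 and 791.62 FPKM over the Abx libraries. Con library 2 was highest and the other 5 libraries lay close together, with the groups overlapping. Con averaged 811 ± 74.6 FPKM and Abx 753 ± 36.1 FPKM (SD, n = 3 for each), which is a log2 fold change of -0.10 ± 0.16 (standard error, SE, adjusted p = 0.867 by limma). Its 95% interval ran from 0.715-fold to 1.21-fold.

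H2-D1 (ENSMUSG00000073411, chromosome 17, 35262730 to 35267499), the other classical heavy chain gene of C57BL/6 mice, had values of 2225.11, 2726.65 and 2504.36 FPKM in the Con libraries, against 2093.00, 2244.19 and 2415.14 FPKM in Abx. The highest 2 values were in Con and the lowest in Abx, and the groups overlapped. Its log2 fold change was -0.14 ± 0.16 (SE, adjusted p = 0.814 by limma), with an interval from 0.701-fold to 1.17-fold. A difference of 2-fold in either direction was therefore outside the intervals of both classical genes.

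B2m (ENSMUSG00000060802, chromosome 2, 122147686 to 122153083) encodes the light chain that all class I heavy chains share. It measured 6906.29, 6632.39 and 6676.00 FPKM over Con, with 5858.29, 9506.61 and 6585.09 FPKM over Abx. The Con libraries lay within a narrow band, and the highest and the lowest value were both in Abx. The log2 fold change was 0.09 ± 0.21 (SE, adjusted p = 0.908 by limma), with an interval from 0.763-fold to 1.48-fold. Without Abx library 2 it was -0.12, and with quantile normalization -0.08.

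The spread of the 4 members with a mean of at least 100 FPKM was set beside that of other abundant genes, a comparison that was picked out after their values were seen. Over all 6 libraries the standard deviation of log2(FPKM + 1) was 0.11 for H2-K1, 0.14 for H2-D1, 0.24 for B2m and 0.25 for H2-T23. Among the 668 genes tested with a mean of at least 100 FPKM, whose median was 0.39, H2-K1 was the gene in place 12 from the lowest, H2-D1 in place 25, B2m in place 105 and H2-T23 in place 115. The highest value was 1.25 times the lowest for H2-K1 and 1.62 times for B2m.

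**Figure D3:**
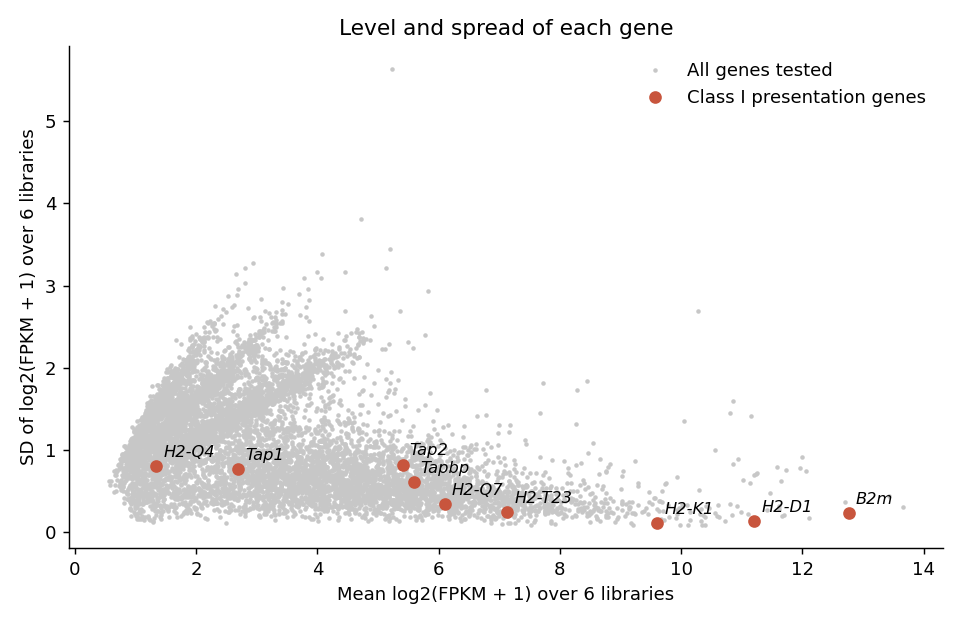
Mean log2(FPKM + 1) of each gene over the 6 libraries against its standard deviation over them, for all 8718 genes tested (grey) and the 9 class I presentation genes (red). H2-K1 (0.11) and H2-D1 (0.14) lie at the lower edge of the abundant genes, while Tap2 (0.82), H2-Q4 (0.80) and Tap1 (0.77) spread more than the other 6.

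Ratios within a library do not depend on how that library was scaled. H2-K1 over H2-D1 was 0.345, 0.329 and 0.307 in Con libraries 1, 2 and 3, and 0.344, 0.333 and 0.328 in the Abx libraries. All 6 values lay within this narrow range and the groups overlapped (exact two-sided permutation test on the log2 ratio, p = 0.7). Of the stretches of 50 bases in the transcripts of H2-D1, 5.44% also occurred in H2-K1. The ratio of both classical heavy chains to the light chain, H2-K1 plus H2-D1 over B2m, was 0.433, 0.546 and 0.490 in the Con group, against 0.480, 0.315 and 0.487 in Abx. Abx library 2 had the lowest ratio, and the other 5 lay between 0.433 and 0.546. The log2 difference was -0.22 (exact permutation p = 0.4), and -0.01 without Abx library 2. With 3 libraries against 3 the smallest p this test allows is 0.1.

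Of the nonclassical heavy chains, H2-T23 (ENSMUSG00000067212, chromosome 17, 36029773 to 36032855) encodes Qa-1, the counterpart of human HLA-E that NKG2A receptors bind. It had values of 145.64, 155.23 and 155.83 FPKM in the Con libraries, against 147.01, 138.66 and 98.66 FPKM in Abx. Abx library 3 was lowest, and Abx library 1 lay within the range of Con. The log2 fold change was -0.27 ± 0.24 (SE, adjusted p = 0.747 by limma), with an interval from 0.567-fold to 1.22-fold.

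H2-Q7 (ENSMUSG00000060550, chromosome 17, 35439155 to 35443773) encodes a Qa-2 molecule. Its values were 51.04, 59.05 and 66.97 FPKM in the Con group, against 85.07, 95.12 and 58.31 FPKM in Abx, so that Abx libraries 1 and 2 were above Con and Abx library 3 within it. The log2 fold change was 0.40 ± 0.30 (SE, adjusted p = 0.697 by limma), with an interval from 0.821-fold to 2.13-fold. Of the 50-base stretches in its transcripts 26.4% occurred in transcripts of other genes, so its split from its neighbours is uncertain. The most shared with 1 gene was 14.0%, with H2-Q10, which lay at or under 1.88 FPKM. H2-Q6, of whose stretches 13.9% occurred in H2-Q7, was more abundant, and the sum of H2-Q7 and H2-Q6 was 207.35, 206.02 and 180.40 FPKM in the Con group, against 268.37, 190.46 and 256.22 FPKM in Abx, with the groups overlapping again (exact permutation p = 0.3). H2-Q4 (ENSMUSG00000035929, chromosome 17, 35379617 to 35385290), which encodes Qb-1, measured 0.20, 1.36 and 4.08 FPKM over Con, with 1.17, 3.61 and 0.84 FPKM over Abx. Its log2 fold change was 0.12 ± 0.72 (SE, adjusted p = 0.974 by limma), and -0.39 without Con library 1 or -0.28 without Abx library 2. Here 21.8% of the 50-base stretches were shared with other genes.

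Among the loading genes, Tapbp (ENSMUSG00000024308, chromosome 17, 33915899 to 33929292), which encodes tapasin, had the largest difference from Con relative to its spread. Con libraries 1, 2 and 3 stood at 54.53, 90.43 and 59.88 FPKM. In Abx it was at 30.84, 38.94 and 30.29 FPKM, and all 3 Abx values lay under the lowest Con value. The means were 68.3 ± 19.4 and 33.4 ± 4.84 FPKM (SD over 3 libraries), which is a log2 fold change of -0.99 with a standard error of 0.32, or 0.505-fold with an interval from 0.300-fold to 0.851-fold. The unadjusted limma p was 0.0169 and the adjusted p 0.266, so Tapbp was not called. Its log2 fold change was -1.15 to -0.77 over the 13 alternative settings, and its adjusted p by limma was 0.225 to 0.678. Among these settings the changed filters and the replicate block cannot move the fold change.

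Set against the classical heavy chains that tapasin serves, Tapbp over H2-K1 plus H2-D1 was 0.0182, 0.0250 and 0.0183 in the Con group, against 0.0110, 0.0130 and 0.00945 in Abx. Every Abx library was below every Con library, with a log2 difference of -0.88 (exact permutation p = 0.1, 0.233 adjusted over the 7 ratios computed). The highest value was 1.25 times the lowest for H2-K1 and 1.3 times for H2-D1, so the ratio repeats the Tapbp values. It is no separate observation. This ratio, and those to Pdia3 and H2-Ab1 below, were chosen after the values were seen. Pdia3, the disulfide isomerase ERp57 that works with tapasin, had values of 316.41, 299.31 and 324.75 FPKM in the Con libraries, against 193.90, 283.54 and 299.25 FPKM in Abx. Its groups did not overlap either, though Abx library 3 was under the lowest Con library by less than 1 FPKM. The log2 fold change of Pdia3 was -0.30 ± 0.23 (SE, adjusted p = 0.706 by limma). Tapbp over Pdia3 was 0.172, 0.302 and 0.184 in the Con group, against 0.159, 0.137 and 0.101 in Abx, with all Abx values lower (log2 difference -0.71, exact permutation p = 0.1).

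Tap1 and Tap2 encode the paired subunits of the peptide transporter. Tap1 (ENSMUSG00000037321, chromosome 17, 34187553 to 34197225) measured 9.55, 1.51 and 3.84 FPKM over Con, with 7.71, 7.46 and 6.61 FPKM over Abx. The Abx libraries lay close together, and the highest and the lowest value were both in Con. The log2 fold change of Tap1 was 0.71 ± 0.77 (SE, adjusted p = 0.800 by limma), and it was 0.21 without Con library 2 and 1.24 without Con library 1.

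Tap2 (ENSMUSG00000024339, chromosome 17, 34203527 to 34216321) had values of 31.54, 34.37 and 42.77 FPKM in the Con libraries, against 69.65, 17.25 and 88.16 FPKM in Abx. Here the spread was in Abx, with library 2 under all others and libraries 1 and 3 above all Con libraries. The log2 fold change of Tap2 was 0.40 ± 0.60 (SE, adjusted p = 0.863 by limma), and -0.04 without Abx library 3. Tap1 was below Tap2 in all 6 libraries, with a ratio from 0.0439 in Con library 2 to 0.432 in Abx library 2. The intervals of Tap1, from 0.473-fold to 5.66-fold, and of Tap2, from 0.504-fold to 3.44-fold, both held a 2-fold higher level.

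Nlrc5 (ENSMUSG00000074151, chromosome 8, 94434356 to 94527272), the class I transactivator, measured 0.02, 0.01 and 0.02 FPKM over Con, with 0.04, 0.01 and 1.17 FPKM over Abx. Abx library 3 alone reached 1 FPKM, and the groups overlapped (exact two-sided permutation test on log2(FPKM + 1), p = 0.4). B2m, H2-D1 and H2-K1 were abundant in libraries in which the transactivator was near 0. With the depth unknown, no limit on its true level can be given.

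**Figure D4:**
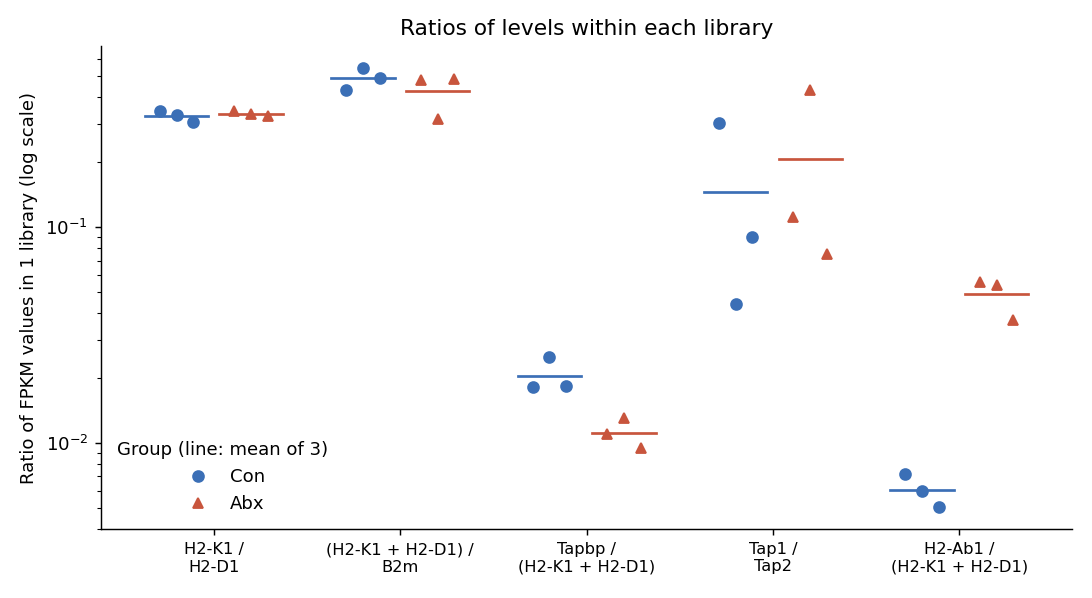
Ratios of FPKM values within each library (log axis) for the 3 Con (circles) and 3 Abx (triangles) libraries, with a line at the mean of each group. H2-K1 over H2-D1 stays between 0.307 and 0.345 in all 6 libraries, Tapbp over the classical heavy chains is lower in every Abx library, and H2-Ab1 over them is higher in every Abx library.

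The other genes of the pathway were taken from lists, none of which was tested as a set. Over all genes tested, 53.0% were lower in Abx by fitted value, and in 17.2% the groups did not overlap. Of 14 further class I and class I-like genes 9 were tested, and 0 were called. By fitted value 4 were higher and 5 lower, and the median log2 difference was -0.22. The groups of H2-T22 and H2-T24 did not overlap. H2-T22, whose product is bound by gamma delta T cells, had values of 21.45, 37.86 and 32.49 FPKM in the Con libraries, against 53.91, 44.57 and 48.87 FPKM in Abx (log2 fold change 0.70, limma adjusted p = 0.520). H2-T24 measured 0.85, 0.02 and 0.10 FPKM over Con, with 6.23, 2.73 and 3.41 FPKM over Abx (1.95, limma adjusted p = 0.197).

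Of 8 genes of peptide loading and trimming, all tested, 0 were called, 7 were lower by fitted value and 1 was higher, and their median log2 difference was -0.31. Pdia3 was the 1 of them without overlap. The 5 genes of the immunoproteasome, the form of the proteasome that interferon induces, were tested and 0 were called, with a median of 0.11 and a range from -0.14 to 0.30. Psmb9, a catalytic subunit encoded beside Tap1, had values of 24.20, 30.83 and 24.41 FPKM in the Con libraries, against 31.41, 37.81 and 29.22 FPKM in Abx. Psmb8, another, measured 101.37, 86.69 and 122.42 FPKM over Con, with 88.49, 118.56 and 127.87 FPKM over Abx. Psme2, of the proteasome activator PA28, had values of 154.08, 130.79 and 125.60 FPKM in the Con libraries, against 169.10, 148.46 and 188.97 FPKM in Abx. Psme1, its other subunit, was uneven, with 150.03, 63.17 and 123.31 FPKM over Con and 41.76, 156.25 and 132.49 FPKM over Abx. The groups overlapped in all 5 of these genes.

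Of 12 transcription factors that act on class I promoters 9 were tested and 0 were called, with 1 higher and 8 lower by fitted value and a median log2 difference of -0.48. Rela, a subunit of NF-kB, was the 1 whose groups did not overlap, at 57.72, 59.94 and 44.07 FPKM in the Con group, against 0.30, 29.34 and 13.96 FPKM in Abx (log2 fold change -2.70 ± 1.07, SE, adjusted p = 0.396 by limma). Irf1, which binds the response element, measured 28.59, 6.77 and 10.73 FPKM over Con, with 15.84, 29.67 and 22.57 FPKM over Abx, overlapping.

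Of 42 interferon-responsive genes outside the class I pathway 21 were tested and 0 were called, with 9 higher and 12 lower by fitted value and a median log2 difference of -0.29. Their log2 differences ranged from -1.87 to 2.48, and those of the 9 class I genes from -0.99 to 0.71. Irf1 is in this list as well. Of the genes tested, the groups did not overlap in Parp14 and Ly6e. Parp14, an ADP-ribosyltransferase, had values of 0.04, 0.19 and 0.17 FPKM in the Con libraries, against 7.24, 4.31 and 4.78 FPKM in Abx (log2 fold change 2.48, limma adjusted p = 0.105). Ly6e, a surface protein, measured 251.49, 414.13 and 364.02 FPKM over Con, with 586.23, 508.72 and 589.34 FPKM over Abx (0.74, limma adjusted p = 0.238). The lowest log2 fold change was that of Irf7, a transcription factor of the interferon response, at 8.18, 3.91 and 7.04 FPKM for Con but 0.25, 4.07 and 0.16 FPKM for Abx (-1.87, limma adjusted p = 0.455). Of the 21 genes not tested, 4 had all Abx libraries above Con and 1, Isg15, had them below. The share over all genes not tested was not computed, so this count is no result about the list. Values are listed to 2 decimals, and several of those below lay near that floor, among them all values of Oasl2. Gbp9 was at 0.02 to 0.04 FPKM in Con and 0.14 to 8.80 FPKM in Abx, and Ifit3 at 0.07 to 0.36 FPKM and 0.46 to 1.02 FPKM. Rsad2 was at 0.03 to 0.16 FPKM and 0.28 to 4.28 FPKM, and Oasl2 at 0.01 to 0.03 FPKM and 0.06 to 0.08 FPKM. Isg15, a ubiquitin-like modifier, was at 0.04, 1.38 and 1.24 FPKM for Con and listed at 0 in all Abx libraries (exact permutation p = 0.1). Irf7, Isg15, Gbp9, Ifit3, Rsad2 and Oasl2 were named after their values were seen. Of 7 interferon receptor and kinase genes 6 were tested and 0 were called. Ifngr1, the ligand-binding chain of the interferon gamma receptor, had values of 111.54, 79.40 and 94.26 FPKM in the Con libraries, against 167.24, 129.72 and 175.79 FPKM in Abx, without overlap (0.72, limma adjusted p = 0.294). The gene not tested was Ifnar1, a chain of the type 1 interferon receptor, which was listed at 0 in Con library 1 and all Abx libraries and at 11.58 and 8.24 FPKM in Con libraries 2 and 3 (exact permutation p = 0.4).

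In the class II list, the parallel pathway that presents peptides to CD4 T cells, 5 of 7 genes were tested, all 5 were higher in Abx by fitted value, their median log2 difference was 1.60, and 1 was called. H2-Ab1, the beta chain of I-A, rose from 21.53, 21.78 and 16.47 FPKM in Con to 157.02, 160.46 and 118.85 FPKM in Abx (log2 fold change 2.81 ± 0.29, SE, adjusted p = 0.0448 by limma). Its log2 fold change was 2.66 to 2.94 over the 13 alternatives, of which the changed filters and the replicate block cannot move it. H2-Ab1 was called in 2 of the 13, with an adjusted p by limma from 0.0274 to 0.293. The ratio of H2-Ab1 to H2-K1 plus H2-D1 was 0.00720, 0.00601 and 0.00503 in the Con group, against 0.0558, 0.0537 and 0.0371 in Abx, a log2 difference of 3.00 (exact permutation p = 0.1, 0.233 adjusted over the 7 ratios). Cd74, the invariant chain, measured 159.75, 226.10 and 173.07 FPKM over Con, with 320.92, 524.57 and 465.39 FPKM over Abx (1.21, limma adjusted p = 0.102), and H2-DMa at 6.51, 13.77 and 6.32 FPKM and 31.39, 33.41 and 19.32 FPKM (1.60, limma adjusted p = 0.259). H2-Aa, the alpha chain of I-A, was uneven, at 20.28, 12.47 and 13.91 FPKM for Con but 0.60, 75.90 and 57.72 FPKM for Abx, with Abx library 1 under all others (0.25 ± 1.37, SE, adjusted p = 0.969 by limma). The summed level of the B cell markers was higher in the same libraries, through Ighm and Igkc and with Cd79b and Cd22 lower, and its part in this difference was not tested. The ratio of H2-Ab1 to the classical heavy chains repeats the H2-Ab1 values, because H2-K1 and H2-D1 varied little between the libraries. The difference of the differences between class I and class II genes was not tested.

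**Figure D5:**
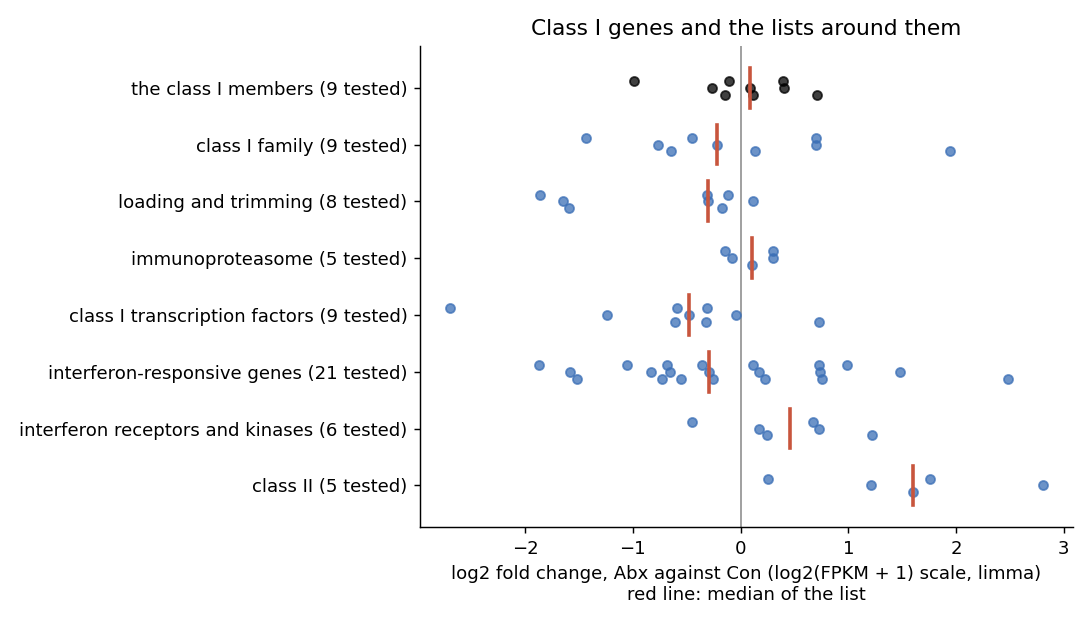
log2 fold change of Abx against Con for each gene tested, on the log2(FPKM + 1) scale, in the 9 class I presentation genes (black) and in 7 lists around them (blue), with a red line at the median of each list. The class I genes lie between -0.99 and 0.71 with a median of 0.09, and the immunoproteasome between -0.14 and 0.30. The class II genes lie between 0.25 and 2.81 with a median of 1.60, so their range overlaps that of class I.

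The mean profile of the 9 genes, each centred on its own mean, ranged from -0.11 in Con library 1 to 0.13 in Con library 3 on the log2 scale, with the Abx libraries in between. Among the other 8709 genes tested, those with the highest Pearson correlation to it over the 6 libraries were Gm15500 (0.954), Il17a (0.952), Ginm1 (0.946), Marchf7 (0.942) and Ube2a (0.937). Gm15500 had values of 48.91, 57.20 and 91.20 FPKM in the Con libraries, against 72.17, 67.53 and 60.73 FPKM in Abx. The members were centred and not scaled, so those that spread most weigh most in the mean profile. These were Tap2, H2-Q4 and Tap1 (SD of 0.82, 0.80 and 0.77), of which H2-Q4 lay at 0.20 to 4.08 FPKM. H2-K1 and H2-D1 (0.11 and 0.14) hardly shaped it. With 6 libraries that share their scaling across genes these correlations are a description.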

How the data were processed

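SMART-seq of 1000 sorted lung ILC2s per library gave 3 Abx and 3 Con libraries, grouped by sample title. The deposited values are FPKM per gene, which the authors made with Cutadapt, HISAT2 and StringTie. The methods name a human annotation, while the genes carry mouse Ensembl identifiers, and the submitters' processing notes name Bowtie 0.12.2 with mm8 and mm9. Coordinates were looked up by identifier in GENCODE M21 (GRCm38), which holds 55134 of the 55394 identifiers. The number of reads is unknown, so counting precision cannot be given. The FPKM were used without further scaling.

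Genes at 1 FPKM or more in at least 3 of 6 libraries, 8718 in all, were fitted as log2(FPKM + 1) with limma 3.58.1 in R 4.3.3 (lmFit, eBayes with trend, two-sided, Benjamini-Hochberg over all 8718, checked on simulated data). The simulated data had normal noise around the gene means and lacked the zeros of these libraries, so the check does not cover such genes. The pseudocount understates fold changes of low genes. Calls needed a difference of more than 2-fold with an adjusted p below 0.05. Ratios and genes under the filter were compared by exact permutation over libraries. Tables used Python 3.11.15 and pandas 2.3.3. Stretches of 50 bases were compared, on the same strand, between all GENCODE transcripts.

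The members, lists and tests were chosen with earlier results of these data known. Named are all members, per list the genes called and up to 4 with the largest difference among those whose groups do not overlap (or the largest, where all overlap), the 5 genes most like the members' mean profile, and the first markers of each list, not all of which are given. The spellings of the promoter motifs were set after the windows were read. Irf1, Irf7, Isg15, Gbp9, Ifit3, Rsad2, Oasl2, Ifnar1, H2-Aa, Gzma and Xist were named after their values were seen. So were Areg, Arg1, Icos and Id2 of the ILC2 list, and the B and T cell markers beyond the first of each list. Other marker lists (myeloid, neutrophil, mast cell and basophil, epithelium, endothelium, fibroblast, erythroid) were summed too. Those of mast cells and basophils were 328 to 423 FPKM in Con and 185 to 295 FPKM in Abx, and the other 6 overlapped between the groups. Alternatives were pseudocounts of 0.1 and 0.01, quantile normalization, median centring, no filter, only genes averaging 5 FPKM or more, leaving out each library, and the replicate number as a block. The methods name no pairing, so none was used in the main fit. Same-numbered libraries also did not deviate together (correlations of -0.02, -0.03 and 0.01 across genes). The values of 1 gene of the lists are not reported here.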

Additional observations from a re-analysis of the deposited data

How the results depend on the processing

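In each of the 13 alternative settings, as in limma's fit itself, 0 class I genes were called. H2-K1, H2-D1, Tap1, Tapbp, H2-Q7, H2-T23 and Nlrc5 kept the sign of their log2 fold change in every alternative that could be run. For Nlrc5 the sign rested on Abx library 3, since the log2 difference was 0.372 with all libraries and 0.012 without that one. B2m turned to -0.076 with quantile normalization and lay between -0.117 (without Abx library 2) and 0.232 with a library left out. With a library left out Tap2 lay between -0.041 (without Abx library 3) and 1.104, and H2-Q4 between -0.391 (without Con library 1) and 0.65, with -0.284 without Abx library 2, while quantile normalization gave 0.709 for H2-Q4. The median over the class I genes, 0.09, was -0.076 with quantile normalization, -0.009 over genes averaging 5 FPKM or more, and -0.14 to 0.13 with a library left out. The number of class I genes whose groups did not overlap was 2 with quantile normalization (Tapbp and H2-T23) and 1 to 4 with a library left out, where fewer values have to be apart. Over all genes, the 5 calls became 0 with either smaller pseudocount, with median centring, without a filter and with the replicate block, and 0 to 2 with a library left out, and they became 7 with quantile normalization and 7 over genes averaging 5 FPKM or more. The cause was not tested. With equal groups the replicate block, a paired fit, cannot move a group difference and changes only its error. Its adjusted p for Tapbp was 0.393 by limma, with the log2 fold change at -0.99. The log2 difference of the heavy to light chain ratio stayed at -0.22 for the same reason. A changed filter likewise leaves the log2 fold change of each single gene as it was. That ratio had a log2 difference of -0.33 to -0.01 with a library left out. Where the fit left out a library, 2 libraries of a group remained.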
